A study of Mus musculus with 12 samples.

Results

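The genes described here are the neurotrophins Bdnf and Ntf3, the Trk receptors Ntrk2 and Ntrk3, the p75 receptor Ngfr, the sorting receptor Sort1 and the neurotrophin-responsive secreted protein Vgf. They were chosen by symbol as 7 of the 15759 entries of a table of normalized counts, and all 7 had a mean of at least 10 normalized counts, as did 15369 entries in all. The table covers 12 libraries of poly-adenylated RNA from whole, macro-dissected cortex and whole cerebellum of C57BL/6J mice at 12 weeks of age. Each region gave 3 libraries of SCA1 KI mice, which carry Atxn1 alleles of 154 and 2 CAG-encoded glutamines (Atxn1 154Q/2Q), and 3 libraries of WT mice. SCA1 KI is a model of spinocerebellar ataxia type 1 in which the expanded allele sits at the native locus, so that every cell expressing Atxn1 can make the mutant protein. The study asked which transcripts change in the SCA1 cortex and how that compares with the cerebellum. The cerebellar libraries were reanalysed from an earlier dataset of the same laboratory, so region and sequencing run cannot be told apart.

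Neurotrophins are secreted growth factors made as proforms, which are cleaved to mature ligands inside the cell or after release. Mature BDNF binds TrkB, the product of Ntrk2, and NT-3, the product of Ntf3, binds TrkC, the product of Ntrk3. Both are receptor tyrosine kinases that signal through the Ras-MAPK, phospholipase C gamma and PI3K arms. Proforms bind p75, the product of Ngfr, together with sortilin, the product of Sort1, which also steers proBDNF into secretory vesicles. Vgf is a granin-like precursor of neuropeptides whose transcription is raised by BDNF and by neuronal activity. In the cerebellum granule cells express BDNF and TrkB, and in the cortex BDNF is made mainly by excitatory neurons in response to activity.

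Bdnf lies on chromosome 2 from 109674700 to 109727007 on the plus strand (GRCm38), and GENCODE gives it 11 coding transcripts with 9 distinct starts. Ntf3 lies on chromosome 6 from 126101412 to 126166910 on the minus strand. Ntrk2 lies on chromosome 13 from 58806569 to 59133970 on the plus strand, with 7 coding transcripts of 466 to 821 codons, and Ntrk3 on chromosome 7 from 78175959 to 78738012 on the minus strand, with 6 coding transcripts. The short forms of TrkB and TrkC lack the kinase, and counts per gene do not separate them from the full receptors. Ngfr lies on chromosome 11 from 95568818 to 95587735 on the minus strand with 1 transcript of 427 codons. Sort1 lies on chromosome 3 from 108284082 to 108361511 on the plus strand, and Vgf on chromosome 5 from 137026392 to 137033351 on the plus strand. The targeted gene Atxn1 lies on chromosome 13, as Ntrk2 does, from 45549755 to 45965008 on the minus strand. Exons of Bdnf overlap the antisense gene Gm45346 over 896 bases, and exons of Sort1 overlap the antisense gene Gm12523 over 338 bases. Whether the counting used strand is not given in the sources used here, so reads from those stretches could belong to either gene.

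RefSeq promoter windows (GRCm38.p6, from 250 bases before to 50 bases after a transcript start) matched 4 of the 7 genes, with 7 windows for Bdnf, 2 for Ntf3, 1 for Ntrk2 and 1 for Ngfr. The 250 bases before a start are printed 5′ to 3′ on the gene's own strand for a start of each ligand and for Ntrk2, the receptor of BDNF. The only match to the motifs searched in these 3 stretches lies before Bdnf and is in capitals.
Bdnf, chr2:109692186-109692435, plus strand: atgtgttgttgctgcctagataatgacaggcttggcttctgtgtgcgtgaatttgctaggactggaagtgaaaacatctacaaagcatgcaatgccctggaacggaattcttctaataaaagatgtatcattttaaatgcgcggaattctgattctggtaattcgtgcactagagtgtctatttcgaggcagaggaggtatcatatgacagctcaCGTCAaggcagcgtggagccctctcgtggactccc
Ntf3, chr6:126164961-126165210, minus strand: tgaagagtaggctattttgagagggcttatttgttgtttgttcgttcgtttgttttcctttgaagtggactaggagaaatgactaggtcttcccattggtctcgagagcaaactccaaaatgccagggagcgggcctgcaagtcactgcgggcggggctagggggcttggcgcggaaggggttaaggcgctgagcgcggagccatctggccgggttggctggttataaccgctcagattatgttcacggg
Ntrk2, chr13:58806319-58806568, plus strand: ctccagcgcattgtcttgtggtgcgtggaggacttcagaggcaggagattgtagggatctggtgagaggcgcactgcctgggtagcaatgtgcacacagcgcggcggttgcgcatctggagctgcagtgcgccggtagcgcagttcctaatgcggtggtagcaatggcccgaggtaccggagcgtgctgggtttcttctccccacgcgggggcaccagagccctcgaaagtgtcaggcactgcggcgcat
The capitals mark a short form of the cyclic AMP response element (TGACG, on the other strand CGTCA), which starts 35 bases before the transcript start. The short form was found in 20.8% of 32851 promoter windows of the same length. The full element TGACGTCA was in 1.79% of these windows, the E-box CACGTG in 7.15%, and the sites TGAATGAA and TGAATGGA of Capicua, a repressor that binds ataxin-1, in 1.30% and 1.21%. The short form is contained in the full element, and the E-box shares the letters ACGT with it. Of the 11 windows, 1 other held a match, an E-box that starts 231 bases before the other Ntf3 start. A match of letters is a description of the window and not a binding site.

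Reads on genes numbered 29520855 to 51311309 per library. Atxn1 had 8147, 7443 and 6521 normalized counts in the WT cortex libraries and 4604, 7249 and 6267 in the SCA1 KI cortex libraries. In the cerebellum Atxn1 had 3737, 3628 and 3671 normalized counts in WT and 3812, 3717 and 4138 in SCA1 KI libraries. The groups overlapped in both regions, and gene counts say nothing of the repeat length. The tissue labels were checked against markers: 12 markers of cortical excitatory neurons summed to 337575 to 366135 normalized counts in the WT cortex and 29900 to 34900 in the WT cerebellum, and 10 markers of cerebellar granule cells to 4981 to 5367 and 143418 to 208626. SCA1 KI cortex library A lay farthest from its group, and WT cerebellum library 2 had the lowest granule cell and the highest oligodendrocyte sum of its group. For the genes named below, a call that was lost without either library is given as lost beside it.

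In the cortex all 7 genes had a lower mean in SCA1 KI than in WT mice, and 3 of them passed the test. The 3 were Sort1, Ntrk2 and Ntrk3, against 15.6% of all tested genes that passed in either direction, 10.8% that passed as lower and 4.82% that passed as higher. The log2 fold change (LFC) is the difference of log2(normalized count + 1), SCA1 KI minus WT, and a gene passed in limma if its size exceeded 0.25 and its p, adjusted by Benjamini and Hochberg over all tested genes, was under 0.05. The median LFC of the 7 genes was −0.44 and that of all tested genes −0.0028. In 4 genes (Bdnf, Ntrk2, Ntrk3 and Sort1) every SCA1 KI library lay below every WT library, and the libraries of 30.9% of all tested genes did not overlap in either direction. In the cerebellum 1 of the 7 genes, Vgf, passed as lower, against 5.36% of all tested genes in either direction, 4.44% as lower and 0.917% as higher. There Ntf3, Ntrk3 and Ngfr had all SCA1 KI libraries above all WT libraries, and Ntrk2, Sort1 and Vgf had all of them below. Libraries did not overlap in 31.8% of all tested genes in the cerebellum, and the median LFC there was −0.09 for the 7 genes and −0.0049 for all.

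**Figure D1:**
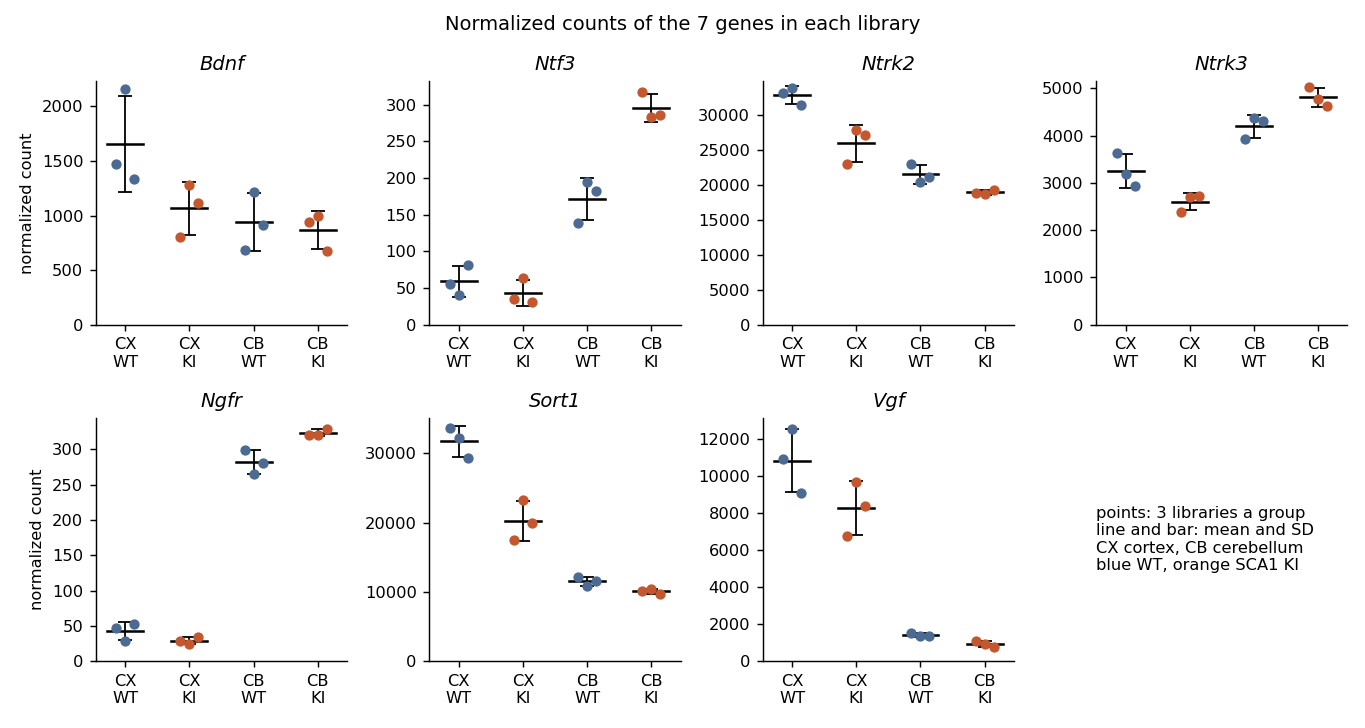
Normalized counts of the 7 genes in each library, 1 panel a gene with its own axis from 0, for cortex (CX) and cerebellum (CB) of WT (blue) and SCA1 KI (orange) mice; lines and bars are the mean and SD of 3 libraries. Sort1 falls from 31729 to 20209 on average in the cortex, while Ntf3 and Ngfr lie much higher in the cerebellum than in the cortex.

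Bdnf encodes the main neurotrophin of the adult forebrain. It had 1473.5, 2158 and 1337 normalized counts in the WT cortex libraries B, C and D and 801, 1276 and 1118 in the SCA1 KI libraries A, E and F. Every SCA1 KI value lay below every WT value, but the WT libraries spread over a range wider than the gap between the groups. The LFC of −0.63 (SE 0.24, adjusted p = 0.0906 from limma) did not pass. DESeq2 on the recovered reads gave an adjusted p of 0.0353 and edgeR one of 0.0871 for the same gene. Without library A the LFC was −0.44 (adjusted p = 0.279 from limma). In the cerebellum Bdnf had 687, 1214 and 914 normalized counts in WT and 938, 1000.4 and 673 in SCA1 KI libraries, and the groups overlapped throughout. Its LFC there was −0.09 (SE 0.24, adjusted p = 0.903 from limma), and it turned to 0.11 without WT library 4 and to 0.08 without SCA1 KI library 5.

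Ntf3, which encodes NT-3, had LFCs of opposite sign in the regions. In the cortex it was low, with 55.9, 39.9 and 82.0 normalized counts in WT and 35.5, 63.8 and 31.5 in SCA1 KI libraries. These groups overlapped, and the LFC of −0.44 (SE 0.28, adjusted p = 0.312 from limma) did not pass. In the cerebellum it had 139, 194 and 182 normalized counts in WT and 318, 283 and 286 in SCA1 KI libraries. The lowest SCA1 KI library lay well above the highest WT library, with means of 295 ± 19.3 (SD, n = 3) and 172 ± 29.1 (SD, n = 3). The LFC in the cerebellum was 0.79 (SE 0.28), and its adjusted p of 0.137 from limma did not pass. This call depended on the tool: the adjusted p was 0.0284 with DESeq2, 0.0762 with edgeR and 0.0217 with limma on the cerebellum alone. Without WT library 2, which had the lowest Ntf3 of all cerebellar libraries, the LFC was 0.65 (adjusted p = 0.403 from limma).

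Ntrk2, which encodes TrkB, had 33224, 33856 and 31442 normalized counts in the WT cortex and 22946, 27883 and 27123 in the SCA1 KI cortex. Every SCA1 KI library lay below every WT library, and the fold change of the fit was a fall of 21.1%. The LFC was −0.34 (SE 0.07, adjusted p = 0.00683 from limma), and it was −0.26 without library A (adjusted p = 0.0155). When the dependence on length and GC content was taken out, the value of −0.19 (adjusted p = 0.0252) lay under the limit of 0.25 in size and did not pass. In the cerebellum Ntrk2 had 22972, 20451 and 21092 normalized counts in WT and 18842, 18677 and 19268 in SCA1 KI libraries. The 3 SCA1 KI values lay close together below the WT values, and the LFC of −0.18 (SE 0.07, adjusted p = 0.215 from limma) did not pass. The difference between the regions in the LFC of Ntrk2 was −0.16 (SE 0.11, adjusted p = 0.428), so no difference between the regions was detected for this receptor.

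Ntrk3, which encodes TrkC, went in opposite directions by mean in the regions. It had 3637, 3188 and 2933 normalized counts in the WT cortex and 2389.8, 2705 and 2715 in the SCA1 KI cortex. The highest SCA1 KI library lay below the lowest WT library, and the LFC of −0.32 (SE 0.08, adjusted p = 0.0180 from limma) passed. It did not pass without library A (LFC −0.26, adjusted p = 0.0620) or without WT library B (adjusted p = 0.0656). After removal of the dependence on transcript length and GC content from each library it was −0.12 (adjusted p = 0.245); Ntrk3 is the longest of the 7, with 30170 bases of exon. In the cerebellum Ntrk3 had 3920, 4372 and 4306 normalized counts in WT and 5022, 4776 and 4628 in SCA1 KI libraries. There every SCA1 KI library lay above every WT library, and the LFC of 0.20 (SE 0.08, adjusted p = 0.230 from limma) did not pass, while the value of 0.27 after the same correction for length and GC content passed (adjusted p = 0.0289). The difference between the regions in the LFC was −0.51 (SE 0.12, adjusted p = 0.0165 from limma) and passed, as did that of Sort1. Of all tested genes 8.15% passed for this difference, 4.89% with the more negative LFC in the cortex, as in both of these, and 3.26% with the more positive one.

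Ngfr, which encodes the p75 receptor shared by all neurotrophins, was the lowest of the 7 genes in the cortex per kb of exon. It had 47.5, 28.8 and 53.5 normalized counts in WT and 28.6, 24.3 and 34.2 in SCA1 KI cortex libraries. The groups overlapped through WT library C, and the LFC was −0.53 (SE 0.20, adjusted p = 0.0966 from limma). Without that library it was −0.79 and passed (adjusted p = 0.00745). In the cerebellum Ngfr had 299, 265 and 281 normalized counts in WT and 320.2, 321 and 329 in SCA1 KI libraries. The SCA1 KI libraries lay above the WT libraries by a small margin, and the LFC of 0.20 (SE 0.20, adjusted p = 0.701 from limma) did not pass. Between the regions the LFC differed by −0.73 (SE 0.29, adjusted p = 0.160 from limma), short of the threshold, and without cortex library C by −0.99, which passed (adjusted p = 0.0194).

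Sort1, which encodes sortilin, had the smallest p of the 7 genes in the cortex. It had 33684, 32151 and 29352 normalized counts in the WT cortex and 17458, 23220.3 and 19949 in the SCA1 KI cortex. The means were 31729 ± 2197 (SD, n = 3) and 20209 ± 2890 (SD, n = 3), and no libraries overlapped. The LFC was −0.66 (SE 0.09, adjusted p = 3.74e-04 from limma), a fall of 36.6%. It stayed between −0.76 and −0.56 when any 1 library was left out, with −0.56 without library A (adjusted p = 8.83e-04). In the cerebellum Sort1 had 12239, 10879.7 and 11569 normalized counts in WT and 10167, 10397 and 9687 in SCA1 KI libraries. These also did not overlap, but the LFC of −0.20 (SE 0.09, adjusted p = 0.297 from limma) did not pass. The difference between the regions in the LFC was −0.46 (SE 0.13, adjusted p = 0.0466 from limma), and it failed to pass when any of 9 of the 12 libraries was left out.

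Vgf, the secreted peptide precursor, had 10919.5, 12530.2 and 9093 normalized counts in the WT cortex and 6762, 9705 and 8381 in the SCA1 KI cortex. The groups overlapped through SCA1 KI library E, and the LFC was −0.39 (SE 0.15, adjusted p = 0.102 from limma). Without WT library D it was −0.51 and passed (adjusted p = 0.0497). In the cerebellum Vgf had 1536, 1349 and 1392 normalized counts in WT and 1089, 956 and 751 in SCA1 KI libraries. Every SCA1 KI library lay below every WT library, and the LFC of −0.63 (SE 0.15, adjusted p = 0.0317 from limma) passed, with means of 932 ± 170 (SD, n = 3) and 1425 ± 97.9 (SD, n = 3). It did not pass without WT library 2 (LFC −0.57, adjusted p = 0.118), without WT library 6 (adjusted p = 0.0792) or without SCA1 KI library 3 or 5 (adjusted p = 0.0839 and 0.133). With the dependence on length and GC content removed it was −0.47 (adjusted p = 0.0748 from limma). GC makes up 64.1% of the longest transcript of Vgf, the highest share of the 7 genes. The difference between the regions in the LFC of Vgf was 0.23 (SE 0.22, adjusted p = 0.598 from limma), so the fall in the cerebellum was not shown to differ from that in the cortex.

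**Figure D2:**
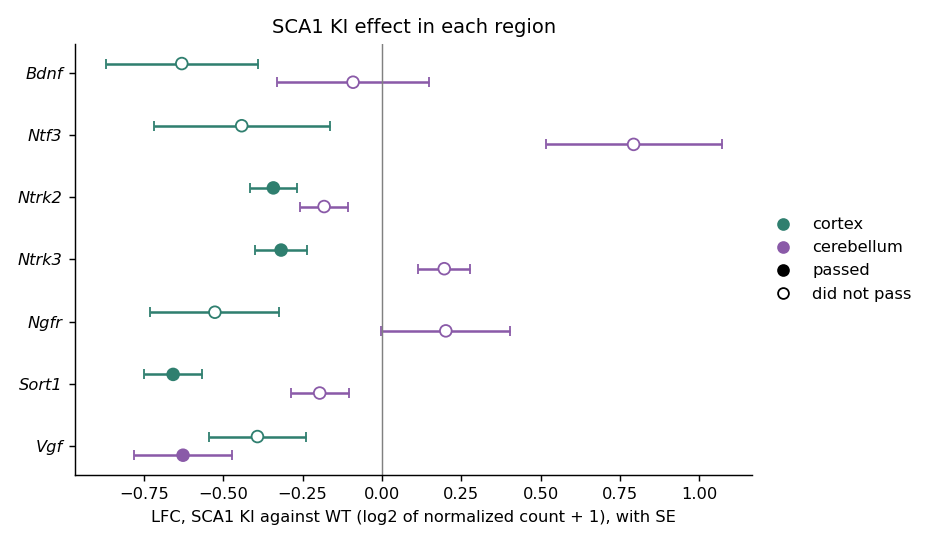
LFC of SCA1 KI against WT (log2 of normalized count + 1) with its standard error for each gene in the cortex (green) and the cerebellum (purple); filled points passed the limma test and open points did not. All 7 cortex points lie left of 0, and Ntf3, Ntrk3 and Ngfr lie right of 0 in the cerebellum.

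In both regions the summed markers of some lists differed between the genotypes and those of others overlapped. The counts of cortex markers given here compare with 10.8% of all tested genes that fell in the cortex and 4.82% that rose. In the cortex 10 astrocyte markers, of cells that express the short form of TrkB, summed to 302682 to 304968 normalized counts in WT and 156331 to 219629 in SCA1 KI libraries, lowest in library A, and 6 of the 10 fell (5 without library A). The 12 markers of cortical excitatory neurons summed to 337575 to 366135 in WT and 182261 to 213588 in SCA1 KI libraries, and 5 fell. Of 10 forebrain interneuron markers 3 fell (2 without library A). Markers of midbrain and brainstem summed to 264 to 365 in WT, where Hoxb3 was at 0, and 729 to 1715 in SCA1 KI cortex libraries, and 3 of the 8 tested rose. No marker of the lists above moved the other way in the cortex. Other lists also held calls there. Of 10 hippocampus and claustrum markers 3 fell (2 without library A), and of 7 oligodendrocyte precursor markers 3 fell (0 without library A). Of 10 Purkinje cell markers 4 fell and 1 rose (3 and 1 without library A). These 10 summed to 47459 to 49991 in the WT cortex, so the list does not single out Purkinje cells there. It shares Foxp2 with the list of cortical excitatory neurons. Thalamus and habenula markers had 1 of 9 lower and 2 higher. Of 9 striatum markers 2 fell (1 without library A). Of 8 cerebellar interneuron and unipolar brush cell markers 3 fell. These 8 summed to 11230 to 12097 in the WT cortex, so they do not single out cerebellar cells there. They include Sorcs3, which is also among the sortilin relatives named below. Oligodendrocyte markers summed to 84863 to 144807 in WT and 91101 to 105664 in SCA1 KI cortex libraries, which overlapped. Microglia sums overlapped too, at 17300 to 19581 and 17946 to 17961. Of these 2 lists of 10 markers, 0 passed in the cortex by limma, edgeR or DESeq2, and 0 had an unadjusted limma p under 0.05. In whole tissue, fewer cells of a type and less RNA per cell cannot be told apart. The part of the listed markers in the lower Sort1, Ntrk2 and Ntrk3 was not tested.

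In the cerebellum 10 Purkinje cell markers summed to 345628 to 430113 normalized counts in WT and 303793 to 341984 in SCA1 KI libraries. Of these 2 fell (3 without WT library 2). Of all tested genes 4.44% fell there and 0.917% rose. Astrocyte markers summed to 233672 to 249926 in WT and 195561 to 199808 in SCA1 KI libraries. Of these 10, 2 fell, with or without WT library 2. Of 8 tested midbrain and brainstem markers 2 fell (1 fell and 1 rose without WT library 2). Their sum was 5836 to 8202 in WT and 6937 to 7717 in SCA1 KI libraries. Granule cell markers summed to 143418 to 208626 in WT and 197811 to 207996 in SCA1 KI libraries, and 0 of 10 passed by limma, edgeR or DESeq2 (1 higher at an unadjusted limma p under 0.05). Oligodendrocyte markers summed to 191649 to 285472 and 162596 to 163471, with 2 of 10 lower (0 without WT library 2). The 10 forebrain interneuron markers summed to 54023 to 54794 and 44435 to 46727, with 3 lower. That list summed to less, 37069 to 39388, in the WT cortex, so it does not single out forebrain cells here. Markers of cerebellar interneurons and unipolar brush cells summed to 21154 to 22370 in WT and 20136 to 20653 in SCA1 KI libraries. Of these 8, 0 passed by limma, edgeR or DESeq2 (1 lower at an unadjusted limma p under 0.05). Of the 9 thalamus and habenula markers tested 5 fell (4 without WT library 2). Their sum nevertheless was 38416 to 42895 in WT and 45661 to 46422 in SCA1 KI libraries. This list summed to 8170 to 9039 in the WT cortex, and 7 of the 9 were lower there than in the WT cerebellum. It therefore does not single out thalamic cells in the cerebellum. Further lists held calls in the cerebellum as well. Of 12 markers of cortical excitatory neurons 4 fell and 1 rose (2 and 1 without WT library 2). Of 10 hippocampus and claustrum markers 1 rose, and of 9 striatum markers 1 fell. Of 10 microglia markers 1 fell (0 without WT library 2). Markers of basal forebrain cholinergic neurons, cells that express Ngfr, summed to at most 233 in any cerebellar library, in WT library 2. The part of these markers in the lower Vgf was not tested.

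Ratios of reads within a library do not depend on how libraries are scaled, and 4 of them were chosen after the values had been seen. The ratio of Ntrk2 to Ntrk3 reads in the cortex was 10.2 ± 0.889 (SD, n = 3) in WT and 9.97 ± 0.353 in SCA1 KI libraries, a difference within the spread of the WT libraries. In the cerebellum this ratio was 5.86, 4.68 and 4.90 in WT and 3.75, 3.91 and 4.16 in SCA1 KI libraries, which did not overlap. The ratio of Bdnf to Ntf3 reads in the cerebellum was 4.95, 6.25 and 5.03 in WT and 2.95, 3.54 and 2.36 in SCA1 KI libraries. Again no SCA1 KI library reached the WT range, while in the cortex the same ratio was 32.3 ± 19.6 in WT and 26.0 ± 8.27 in SCA1 KI libraries (SD, n = 3). The ratio of Sort1 to Ntrk2 reads in the cortex was 1.01, 0.950 and 0.934 in WT and 0.761, 0.833 and 0.735 in SCA1 KI libraries, with every SCA1 KI library below every WT library. In the cerebellum it was 0.538 ± 0.0093 in WT and 0.533 ± 0.0275 in SCA1 KI libraries. The ratio of Vgf to Bdnf was 6.67 ± 0.810 in WT and 7.85 ± 0.516 in SCA1 KI cortex libraries, and 1.62 ± 0.568 and 1.08 ± 0.108 in the cerebellum. In a two-sided exact permutation test 3 libraries against 3 cannot go below p = 0.1. That value was reached by the ratio of Ntrk2 to Ntrk3 and of Bdnf to Ntf3 in the cerebellum and by Sort1 to Ntrk2 and Vgf to Bdnf in the cortex. Adjusted over the 8 exact tests these p-values were 0.2. Leaving libraries out of the ratios was also chosen after the values had been seen. Without WT library 2 the cerebellar WT means were 4.79 for Ntrk2 to Ntrk3 and 5.64 for Bdnf to Ntf3. Without library A the mean of Sort1 to Ntrk2 in the SCA1 KI cortex was 0.784.

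**Figure D3:**
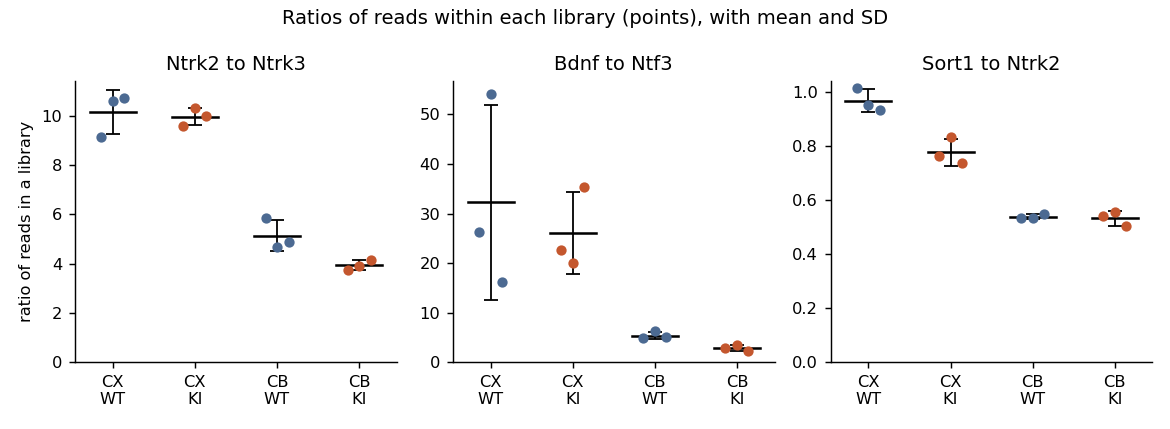
Ratios of reads of 2 genes within each library (points) with the mean and SD of 3 libraries, for WT (blue) and SCA1 KI (orange) in cortex (CX) and cerebellum (CB). The ratio of Ntrk2 to Ntrk3 is lower in SCA1 KI than in WT libraries of the cerebellum, and that of Sort1 to Ntrk2 is lower in the cortex.

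In WT mice all 7 genes differed between cortex and cerebellum, against 61.7% of all tested genes that passed and 69.9% whose libraries did not overlap. By direction, 31.0% of all tested genes passed as higher in the cortex and 30.7% as lower. Vgf, Sort1, Bdnf and Ntrk2 were higher in the cortex, with log2 differences of cortex minus cerebellum of 2.92, 1.46, 0.83 and 0.61. Ngfr, Ntf3 and Ntrk3 were lower in the cortex, by −2.72, −1.56 and −0.37. The adjusted p-values from limma ranged from 3.19e-09 for Vgf to 0.00813 for Bdnf. For Ntrk3 the regional difference was −0.05 with the dependence on length and GC content removed (adjusted p = 0.576). These contrasts share the WT libraries with the genotype comparisons, and sequencing run is confounded with region.

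Levels were compared between genes as normalized counts per kb of exon. In the WT cortex the order was Sort1 (4192 ± 290 per kb, SD, n = 3), Vgf (3649 ± 578), Ntrk2 (1702 ± 64.9), Bdnf (266 ± 70.8), Ntrk3 (108 ± 11.8), Ntf3 (34.6 ± 12.4) and Ngfr (12.6 ± 3.74). Libraries of Sort1 and Vgf overlapped, and all other neighbours were separate. In the SCA1 KI cortex Vgf (2786 per kb) and Sort1 (2670.0 per kb) changed places by mean, again with overlapping libraries, and the order below them was unchanged. In the WT cerebellum the order was Sort1 (1528 per kb), Ntrk2 (1115), Vgf (479), Bdnf (151), Ntrk3 (139), Ntf3 (100.1) and Ngfr (81.7). Bdnf overlapped with Ntrk3 there, and Ntf3 with Ngfr. In the SCA1 KI cerebellum Ntf3 followed Vgf with 172 per kb, before Ntrk3 (159) and Bdnf (140.0), and these neighbours overlapped. Ngfr (93.8 per kb) lay below every library of the other genes.

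**Figure D4:**
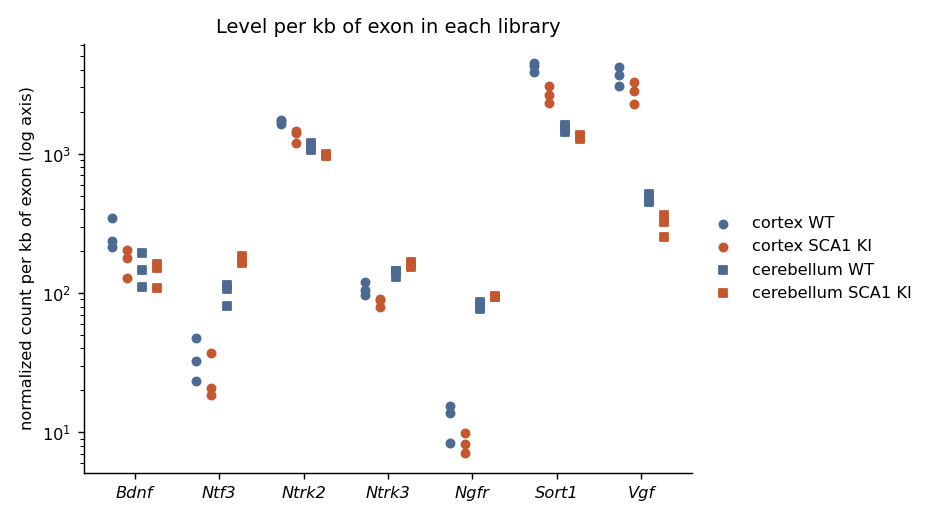
Normalized count per kb of exon (log axis) of each gene in each library, circles for cortex and squares for cerebellum, blue for WT and orange for SCA1 KI. Sort1, Vgf and Ntrk2 lie highest in the cortex, and Ntf3 and Ngfr lie near 100.1 and 81.7 per kb in the WT cerebellum and near 34.6 and 12.6 in the WT cortex.

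For each gene the 3 genes with the most alike pattern were taken, by the smallest mean absolute difference over 12 libraries of log2(normalized count + 1) centred on each gene's mean. The likeness includes the differences between the regions and between the genotypes, so an alike LFC of a neighbour follows in part from the choice. Among all tested genes, 10.8% fell in the cortex and 4.44% in the cerebellum. For Bdnf they were Etv5 (0.13), Per1 (0.15) and Midn (0.15), and Per1, a clock gene that is also induced by activity, fell in the cortex (LFC −0.74, adjusted p = 0.0276 from limma, and 0.0642 without library A). For Ntf3 they were Tpcn2 (0.23), Ccnjl (0.26) and Eps8 (0.27). Eps8, an adaptor of receptor tyrosine kinases, passed in both regions, with cortical LFC −0.47 (adjusted p = 0.00969 from limma) and cerebellar LFC 0.51 (adjusted p = 0.0163, and 0.0551 without WT library 2). Ntrk2 was nearest to Ttc3, Atmin and Nfe2l1 (0.04 each), which all fell in the cortex with LFCs of −0.28, −0.38 and −0.28. Without library A the LFCs of Ttc3 and Nfe2l1 were −0.22 and −0.23, under the limit of 0.25 in size. Ntrk3 was nearest to Fut8, Pag1 and Gm16515 (0.06 each), with LFCs of −0.18 to −0.21 in the cortex and 0.11 to 0.19 in the cerebellum that did not pass. Ngfr was nearest to Rnf152 (0.19), Epb4.1 (0.19) and Pld5 (0.20), which all fell in the cortex, Epb4.1 not without library A (adjusted p = 0.0737 from limma). Sort1 was nearest to 9430020K01Rik (0.06), Cdh12 (0.08) and Dlg4 (0.08), and Dlg4, which encodes the scaffold PSD-95, fell in the cortex by 0.52 on the log2 scale (adjusted p = 1.23e-04 from limma). Vgf was nearest to Khdrbs3 (0.15), Ephb3 (0.16) and Rnf207 (0.17), and Ephb3, an ephrin receptor, fell in the cerebellum (LFC −0.59, adjusted p = 0.0480, and 0.190 without WT library 2).

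Of the other genes of the neurotrophin and sortilin families, 7 were tested, and 3 fell in the cortex and 1 in the cerebellum, where 10.8% and 4.44% of all tested genes fell. The median LFC of these 7 was −0.36 in the cortex and −0.13 in the cerebellum. The 3 were the sortilin relatives Sorcs3 (LFC −0.76, adjusted p = 0.00340 from limma), Sorcs1 (−0.54, adjusted p = 0.00693) and Sorl1 (−0.45, adjusted p = 0.0256), whose libraries overlapped. Without library A Sorl1 did not pass (adjusted p = 0.0915). In the cerebellum Sorcs2, which binds proneurotrophins with p75, fell from 859 ± 165 to 425 ± 31.5 normalized counts (SD, n = 3; adjusted p = 0.00182 from limma).

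Of 15 genes that process proneurotrophins, 2 fell in each region, where 10.8% of all tested genes fell in the cortex and 4.44% in the cerebellum. The cortical share was near that background. Pcsk2, a convertase of the regulated secretory pathway, was among them in both, with a cortical LFC of −0.59 (adjusted p = 6.16e-05 from limma) and a cerebellar LFC of −0.30 (adjusted p = 0.0154, and 0.0619 without WT library 2). The others were Serpini1, an inhibitor of tissue plasminogen activator, in the cortex (LFC −0.35) and the metalloproteinase inhibitor Timp2 in the cerebellum (LFC −0.86, and −0.57 without WT library 2). Timp2 did not pass when either of 2 of the 12 libraries was left out (adjusted p up to 0.0771 from limma). Of 12 genes of dense-core vesicles, which carry Vgf, 1 fell in the cortex and 3 fell and 1 rose in the cerebellum, where 4.44% and 0.917% of all tested genes did. Cadps2, which primes these vesicles and is needed for BDNF release, fell in the cortex by 0.62 on the log2 scale (adjusted p = 0.00422 from limma) but rose in the cerebellum by 0.63 (adjusted p = 0.0102). In the cerebellum Baiap3, Scg2 and Pam fell, with LFCs of −3.63, −0.76 and −0.57 (Pam −0.35 without WT library 2). Baiap3 went from 1043 ± 396 to 82.4 ± 26.2 normalized counts (SD, n = 3). Pam did not pass when any of 3 of the 12 libraries was left out (adjusted p up to 0.118 from limma). Scg2 is a granin like Vgf, and Pam amidates neuropeptides.

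Downstream of the Trk receptors, 8 of 50 adaptors and kinases fell and 2 rose in the cortex, and 1 rose in the cerebellum. Of all tested genes 15.6% passed in the cortex, 10.8% as lower and 4.82% as higher. In the cerebellum 5.36% of them passed, 0.917% as higher. The share of this list that passed in the cortex was near that background. Without library A 4 of the 50 fell and 3 rose. Among those that fell in the cortex were Akt2 (LFC −0.68), Cdk5r1 (−0.44) and Pdpk1 (−0.30), while Ndn (0.49) and Mapk3 (0.45), which encodes ERK1, rose. Pdpk1 did not pass without library A (LFC −0.21, adjusted p = 0.0676). The median LFC of the 50 was −0.09 in the cortex and 0.01 in the cerebellum, where Sh2b2 rose (LFC 0.69, adjusted p = 0.00358 from limma). Of 17 partners of p75, 3 fell and 3 rose in the cortex (2 each without library A), where 10.8% and 4.82% of all tested genes did. In the cerebellum 0 of them passed by limma, edgeR or DESeq2, and 3 had an unadjusted limma p under 0.05. Lingo1 and Rtn4r, which form the Nogo receptor complex with p75, fell with LFCs of −1.08 and −0.98, and Lingo1 went from 18405 to 8738 normalized counts on average. Plaur, the urokinase receptor, also fell (LFC −0.71, adjusted p = 0.0444), but it did not pass when any of 9 of the 12 libraries was left out (adjusted p up to 0.129). Bex1, Ngfrap1 and Maged1, which bind the intracellular part of p75, rose with LFCs of 0.58, 0.34 and 0.28. Without library A the LFC of Ngfrap1 was 0.25 and just under the limit.

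Of 27 regulators of Bdnf transcription, 8 fell and 2 rose in the cortex (9 and 1 without library A), where 10.8% and 4.82% of all tested genes did. In the cerebellum 0 of them passed by limma or edgeR and 1 by DESeq2, and 3 had an unadjusted limma p under 0.05. Camk4, a kinase that activates CREB, fell most clearly (LFC −1.02, adjusted p = 1.33e-04), from 20245 to 10048 normalized counts on average. Bhlhe40, a repressor, and the histone deacetylase gene Hdac4 also fell (LFC −0.99 and −0.71), and Crtc2 and Hdac2 rose (0.29 and 0.26). Hdac2 did not pass without library A (LFC 0.22), and Crtc2 did not pass when any of 9 of the 12 libraries was left out (adjusted p up to 0.146). Of 34 genes induced by BDNF or by activity, 13 fell in the cortex (13 with edgeR, 14 with DESeq2 and 10 without library A), against 10.8% of all tested genes, and by these 3 tools, or at an unadjusted limma p under 0.05, 0 rose. The 34 had a median LFC of −0.53 against −0.0028 for all tested genes. The list was chosen with earlier results of these data known, so these values describe it and are not a test. Among those that fell were Arc (LFC −1.39, from 11001 to 4083 normalized counts on average), Homer1 (−0.99) and Dusp1 (−0.95). In the cerebellum 2 of the 34 fell, Egr3 (LFC −2.49) and Nptx2 (−2.24), near the 4.44% of all tested genes that fell there. With DESeq2 4 fell and without WT library 2 it was 3. The median was −0.02. The difference between the regions in the LFC passed for Arc (−1.28, adjusted p = 0.00728 from limma), Homer1 (−1.02, adjusted p = 0.0315) and, in the other direction, Egr3 (1.46, adjusted p = 0.00883). The GDNF family, another group of trophic factors, had 10 tested genes. Of these Gfra2 (LFC −1.47) and Nrtn (−0.84) fell in the cortex and Gfra1 (−1.36) in the cerebellum. Of all tested genes 10.8% fell in the cortex and 4.44% in the cerebellum. Nrtn did not pass when any of 7 of the 12 libraries was left out (adjusted p up to 0.135). GFRA2 is the receptor of neurturin, the product of Nrtn.

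**Figure D5:**
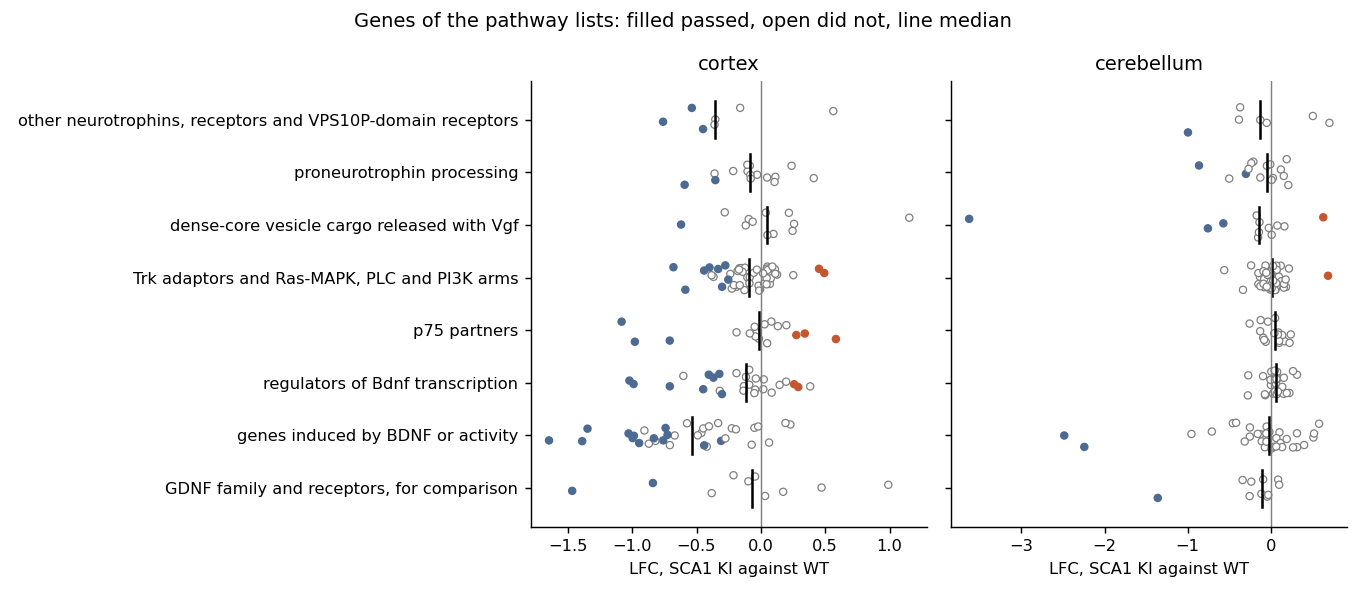
LFC of SCA1 KI against WT for each tested gene of 8 lists in the cortex (left) and the cerebellum (right); filled points passed the limma test (blue lower, orange higher), open points did not, and the line is the median of the list. The genes induced by BDNF or activity have a median of −0.53 in the cortex and −0.02 in the cerebellum.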

How the data were processed

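The authors macro-dissected whole cortex and cerebellum, sequenced poly-adenylated RNA as paired ends, aligned it with STAR to mm10, counted with featureCounts and scaled by DESeq2. The versions of these tools are not given in the sources used here. The deposited signal is the normalized count, the reads of a gene over the library's size factor, and 100% of the values were whole reads within a tolerance of 0.01, so the reads were recovered for edgeR and DESeq2. The labels list males, and the study's methods describe males and females combined.

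Entries whose mean was at least 10 normalized counts (15369) entered 1 limma fit (version 3.58.1, R 4.3.3, moderated with a trend) of log2(normalized count + 1) over 4 group means and 12 libraries. On this scale changes of low genes are understated. The contrasts were SCA1 KI against WT in each region, their difference (no limit on size) and WT cortex against WT cerebellum. Nothing gives the source animals of each library, so p-values measure the spread between these samples, which may be technical. Replicates of a group differed by more than sampling noise, with a chi-square per gene of 7.54 to 36.6.

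The genes named are the 7, Atxn1, the 3 nearest genes of each (mean at least 100), and at most 3 called genes per list, region and direction by smallest p. The ratios were chosen after their values were seen, and some genes are not reported here. The members and lists were chosen with earlier results of these data known, and some lists hold 1 gene under both an older and a newer symbol. Coordinates are from GENCODE vM21. Alternatives were a pseudocount of 0.5 or 5, a filter at 100 or none, centring on the regional median, removal of a trend on length and GC content, edgeR 4.0.16, DESeq2 1.42.0, each region on its own, other limits on the LFC, and each library left out.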

Additional observations from a re-analysis of the deposited data

Results flagged for a closer look

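For 2 of the 7 genes the effect of the SCA1 KI genotype differed between cortex and cerebellum by the test of the difference itself. For Ntrk3 the LFC was −0.32 in the cortex and 0.20 in the cerebellum, a difference of −0.51 (SE 0.12, adjusted p = 0.0165 from limma). Without cerebellum library 1 its adjusted p was 0.0522. For Sort1 the LFC was −0.66 in the cortex and −0.20 in the cerebellum, a difference of −0.46 (SE 0.13, adjusted p = 0.0466 from limma). Leaving out 9 of the 12 libraries in turn moved the adjusted p of Sort1 past 0.05, up to 0.115. No outlier test of single values was made in groups of 3 libraries.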

How the results depend on the processing

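The number of the 7 genes that passed in the cortex was 3, and it was 1 after removal of a trend on length and GC content, 4 with DESeq2 (Bdnf added), 2 with the cortex on its own (without Ntrk3), 0 when the LFC had to exceed 1 in size and 2 to 4 when 1 library was left out. In the cerebellum 1 passed, against 2 with DESeq2, 2 with each region fitted on its own and 0 at the limit of 1, and 0 to 1 when a library was left out (0 without library 2, 3, 5 or 6). The difference between the regions passed for 2, and for 0 to 3 when a library was left out (0 without cerebellum library 1, and 1 without cerebellum library 3, 4, 5 or 6 or cortex library A, B or F). WT cortex against WT cerebellum passed for 7 without any single library and for 4 at the limit of 1. The LFC of Bdnf in the cerebellum turned from −0.09 to 0.11 without library 4 and to 0.08 without library 5, with a range of −0.30 to 0.11 over single libraries left out, and no other value of the 7 genes turned its direction. Ntf3 passed for the difference between the regions with DESeq2 (adjusted p = 0.0181), with the trend removed (0.0422) and without cortex library C (0.0415) or E (0.0176), against 0.0759 in limma. Ngfr passed for it without cortex library C (−0.99, adjusted p = 0.0194). With the trend removed the LFC of Ntrk2 in the cortex was −0.19 and that of Ntrk3 in the cerebellum 0.27 (adjusted p = 0.0289). Ntrk3 in the cortex had an adjusted p of 0.0740 with the cortex on its own. Of the calls named beyond the 7 genes and their nearest genes, 22 of 27 in the cortex held without library A and 10 of 11 in the cerebellum without library 2. Causes were not tested. No paired analysis was possible because the columns carry none of the labels' replicate numbers. In the cortex, 24.3 to 82.0 normalized counts of Ngfr and Ntf3 per library limit what could be detected.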
